A study of Homo sapiens with 12 samples.

Results

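The RNA of 10 genes of the epithelial cell junction was followed in AsPC-1, a line of cultured cells from a human pancreatic ductal adenocarcinoma: *CDH1* (E-cadherin), *CTNNB1* (β-catenin), *CTNND1* (p120-catenin), the claudin genes *CLDN1*, *CLDN3*, *CLDN4* and *CLDN7*, *OCLN* (occludin), *TJP1* (ZO-1) and *F11R* (JAM-A). They were chosen by symbol, through the Ensembl identifier of each row, and all 10 were found once among the 57820 genes of each count table. Total RNA was depleted of rRNA, sequenced on an Ion Proton and counted per gene in 12 libraries. SiBACH1 cells received a small interfering RNA (siRNA) against *BACH1*, the gene of a heme-regulated transcriptional repressor. SiCont cells, labelled as controls, are their reference, and both groups were harvested 24 h after transfection. SgBACH1 cells carried the lentiCRISPR v2 vector, which brings Cas9 and a guide against *BACH1*. SgCont cells, labelled as controls, are set against them, and both groups were selected in 10 µg/ml puromycin. Each of the 4 groups had 3 libraries, and the design names a search for *BACH1* target genes. Neither the labels nor the protocols say whether the knockout cells are 1 clone or a mixture, what the control siRNA and control guide were, or whether replicates are separate cultures; a p-value here weighs a difference against the variation among these libraries, and that variation may be technical.

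E-cadherin spans the membrane at the adherens junction and binds the E-cadherin of the neighbouring cell. Inside the cell its tail holds p120-catenin, which slows its removal from the surface, and β-catenin, which links it through α-catenin to actin; β-catenin outside the junction also carries Wnt signals to the nucleus. Claudins form the strands of the tight junction and set which ions pass between cells, occludin and JAM-A are further membrane proteins of that junction, and ZO-1 is the scaffold beneath them. Loss of E-cadherin is known from carcinomas, the pancreatic ones included, as part of the epithelial to mesenchymal transition, and *CLDN4* is a known surface marker of pancreatic carcinoma. The study may have picked *CDH1*, *CLDN3* and *CLDN4* on these same libraries, so their direction is not independent evidence.

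The libraries held 13099706 to 21478886 counts. The guide sequence given in the labels, with its PAM in capitals, identifies the knockout:
BACH1 guide: ccactcaagaatcgtaggccAGG
*BACH1* stood at 24.9, 27.7 and 24.7 CPM (counts relative to library size, scaled by the TMM method) in siBACH1 libraries, against 196.9, 293.7 and 196.5 CPM in siCont. It stood at 218.3, 198.1 and 185.3 CPM in sgBACH1 libraries, against 267.8, 293.7 and 276.4 CPM in sgCont. SiBACH1 and sgBACH1 libraries each lay wholly below their controls (exact permutation test, two-sided, p = 0.1, the smallest that 3 against 3 libraries can give), and the log2 fold change was -3.15 ± 0.17 after siRNA and -0.48 ± 0.08 in the knockout (SE, edgeR adjusted p = 4.09e-06 and 4.48e-05). *BACH1* shares an exon position with *GRIK1* on the opposite strand and with *LINC00189* on its own strand. RNA counts do not check whether the edited gene still makes protein. The 6 ductal epithelial marker genes (*KRT8*, *KRT18*, *KRT19*, *KRT7*, *EPCAM* and *MUC1*) summed to 12649 to 13032 CPM in siBACH1, 11362 to 12857 in siCont, 11961 to 13424 in sgBACH1 and 18745 to 20318 in sgCont, so the sum was lower in sgBACH1 than in sgCont. Fibroblast marker genes summed to 339.0 to 358.1 CPM in siBACH1, 294.9 to 306.9 in siCont, 45.5 to 51.5 in sgBACH1 and 114.0 to 138.8 in sgCont, nearly all of it from *LUM*, which averaged 350.3, 299.2, 48.7 and 122.9 CPM in siBACH1, siCont, sgBACH1 and sgCont. None of these 12 ductal and fibroblast markers was at 0 in a group, and the part of the marker sums in the results was not tested. Blood markers reached at most 4.17 CPM, with *CD3E* at 0 counts in both control groups and *HBB* in sgCont, and endothelial markers at most 0.884, with *CDH5* at 0 in siCont. SiCont replicate 2 stood apart: its chi-square per degree of freedom against the other siCont libraries was 27.3 and 31.9, against 6.33 to 13.2 for all other pairs of replicates.

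After siRNA 5 of the 10 junction genes rose (*CDH1*, *CLDN3*, *CLDN4*, *OCLN* and *F11R*), none fell, and 5 did not pass the test; 23.9% of the 14591 genes tested were called, 10.9% higher and 13.0% lower (edgeR quasi-likelihood test, adjusted p below 0.05). In the knockout 6 rose (*CDH1*, *CLDN1*, *CLDN3*, *CLDN7*, *OCLN* and *F11R*), none fell, and 4 did not pass; here 23.5% of 14469 genes were called, 11.3% higher and 12.3% lower. The median log2 fold change of the 10 genes was 0.54 after siRNA and 0.50 in the knockout, beside 0.0050 and 0.0055 for all genes tested. *CDH1*, *CLDN3*, *OCLN* and *F11R* were called higher in both experiments, which is 40% of the 10, whereas 320 of the 13845 genes tested in both, or 2.31%, were. The 10 genes were chosen with earlier results of these data known, so these shares and medians are descriptions and no test of enrichment. All 10 passed the filter on low counts in each experiment. Libraries of the groups did not overlap for 7 of the 10 genes after siRNA, against 42.5% of all genes tested, and for 7 in the knockout, against 36.5%. Without siCont replicate 2, edgeR called 5121 of 15112 genes tested in the siRNA experiment, 2513 higher and 2608 lower. Calls thus became more frequent over all genes. In that fit 8 of the 10 genes were called higher, *CTNND1*, *CLDN1* and *TJP1* being the additions. In bulk RNA, a change in the number of cells that express a gene and a change in RNA per cell cannot be told apart.

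**Figure D1:**
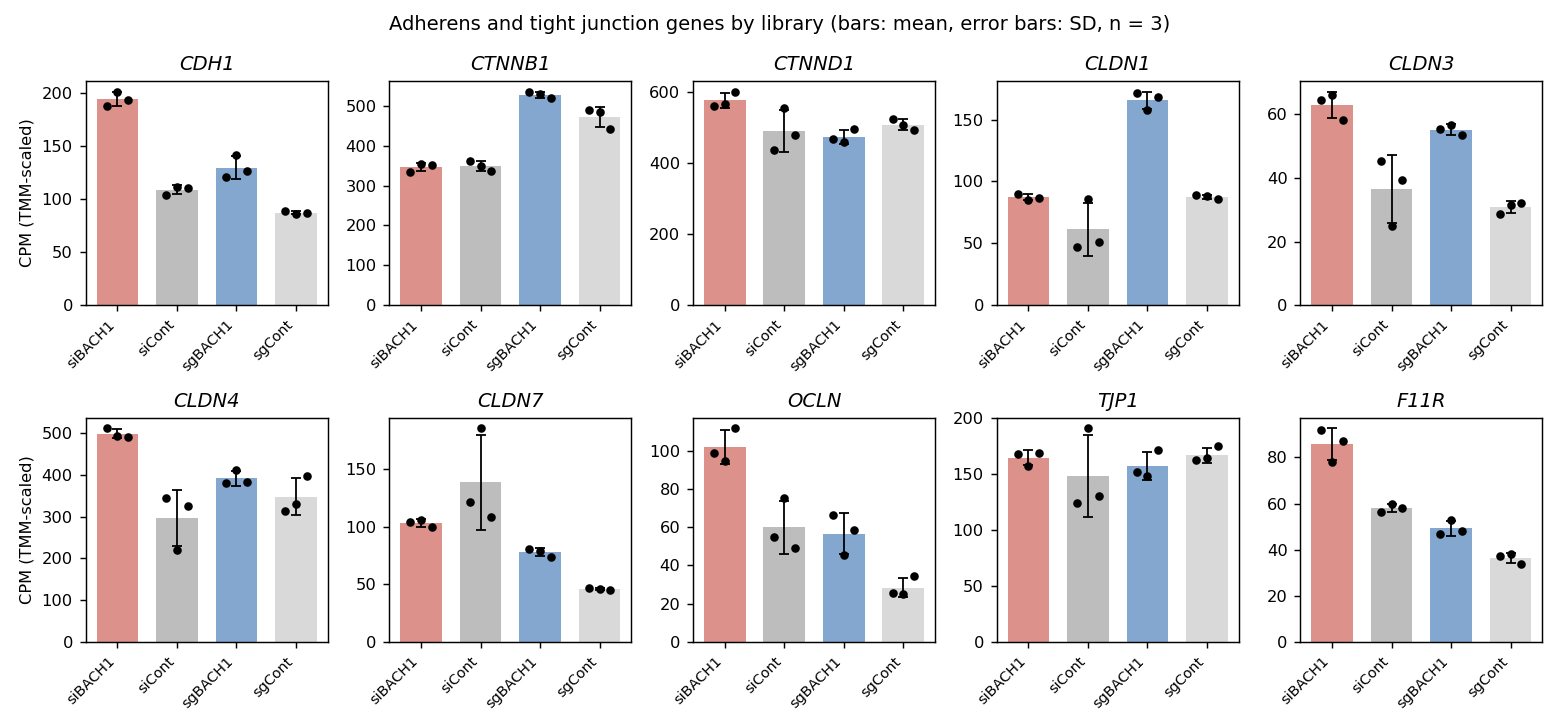
TMM-scaled level (CPM) of the 10 junction genes in each library (points) with the mean (bars) and SD (error bars, n = 3) of siBACH1, siCont, sgBACH1 and sgCont. *CDH1*, *CLDN3*, *OCLN* and *F11R* stand higher in each *BACH1* group than in its own control group with no overlap of libraries, and the scaling was done within each experiment.

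*CDH1* rose in both experiments. It stood at 187.8, 201.5 and 194.1 CPM in siBACH1 libraries, against 103.9, 111.5 and 110.9 CPM in siCont. SgBACH1 libraries had 120.7, 141.6 and 126.6 CPM, against 88.8, 86.2 and 86.6 CPM in sgCont. Every *BACH1* library lay above every library of its control group. The log2 fold change was 0.84 ± 0.07 after siRNA (SE, 95% interval 0.67 to 1.01, edgeR adjusted p = 7.18e-05), or 1.79-fold, and 0.57 ± 0.09 in the knockout (interval 0.39 to 0.75, adjusted p = 2.13e-05), or 1.49-fold. Leaving out each library in turn moved it between 0.80 and 0.86 after siRNA and between 0.51 and 0.62 in the knockout, and no call was lost. *CDH1* (ENSG00000039068) lies on chr16:68737225-68835548, plus strand (GRCh38, GENCODE 29, as for every gene position given here), where an exon of *AC099314.1* overlaps it on the opposite strand.

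The 2 catenins that bind its tail did not pass the test in either experiment. *CTNNB1* (chr3:41194741-41260096, plus strand) stood at 335.2, 354.0 and 352.7 CPM in siBACH1, against 361.4, 348.2 and 337.1 CPM in siCont. Those groups overlapped, and the log2 fold change was -0.0065 ± 0.069 (95% interval -0.16 to 0.15, edgeR adjusted p = 0.957), a sign that turned under 5 of the alternatives run. In sgBACH1 it stood at 533.9, 531.3 and 519.9 CPM, against 489.8, 484.2 and 442.4 CPM in sgCont. Every knockout library lay higher, yet the change of 0.16 ± 0.07 (interval 0.02 to 0.30) missed the threshold in edgeR (adjusted p = 0.0872) and passed it in limma-voom (0.0461) and DESeq2 (0.0415). *CTNND1* (chr11:57753243-57819546, plus strand) stood at 559.4, 566.9 and 600.2 CPM in siBACH1, against 437.1, 554.4 and 479.3 CPM in siCont. All siBACH1 libraries were above the siCont ones, of which replicate 2 came nearest; the log2 fold change was 0.23 ± 0.09 (interval 0.02 to 0.44, edgeR adjusted p = 0.105), and 0.32 without that library (adjusted p = 0.000157). In sgBACH1 *CTNND1* stood at 465.8, 457.6 and 495.1 CPM, against 523.0, 507.6 and 493.1 CPM in sgCont. These groups overlapped, with a log2 fold change of -0.10 ± 0.07 (interval -0.24 to 0.03, adjusted p = 0.303). The readthrough gene *TMX2-CTNND1*, which shares exons with *CTNND1* on the same strand, had 0 counts in every library.

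The level of E-cadherin RNA relative to β-catenin RNA followed *CDH1*. With counts divided by exon length, the ratio of *CDH1* to *CTNNB1* was 1.08 ± 0.0183 in siBACH1 and 0.603 ± 0.0421 in siCont (SD, n = 3 each). In the knockout experiment it was 0.474 ± 0.0391 in sgBACH1 and 0.357 ± 0.0183 in sgCont (SD, n = 3 each). The libraries did not overlap in either experiment (exact permutation test, two-sided, p = 0.1, the smallest possible). The size of the ratio depends on the merged exon lengths, while its fold difference between groups does not.

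Of the 10 genes, 2 hold, in a 3′ UTR, the letters AACATTA or ACATTAA. These strings had been found more often in genes lower after siRNA in an earlier look at the same libraries, so the shares are descriptions only: 11.9% of genes called higher after siRNA hold one, as do 52.7% of those called lower and 18.9% of those not called, and in the knockout 24.8% of those called higher, 22.7% of those called lower and 23.0% of the rest. The first site of each gene, with its matched letters in capitals, shows what the match looks like:
CTNNB1: ctgttttaAACATTAAtagcagcc
CLDN1: ctatcattAACATTAggacctta
Each of these UTRs, both on chromosome 3, has 2 matches, and the UTRs of the other 8 genes have none. In *CTNNB1* the 2 matches are the 2 strings overlapping in the 1 stretch shown, whereas in *CLDN1* they lie apart. *CTNNB1* and *CLDN1* were among the 5 genes not called after siRNA, but *CTNND1*, *CLDN7* and *TJP1*, with no match, were as well.

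The 4 claudins did not move together. Their genes lie on chr7:73768997-73770270, minus strand (*CLDN3*), chr7:73799542-73832693, plus strand (*CLDN4*), chr17:7259903-7263983, minus strand (*CLDN7*), and chr3:190305701-190322475, minus strand (*CLDN1*). RefSeq promoter windows, from 250 bases before to 50 after a transcript start (GRCh38.p14), were matched for 7 of the 10 genes, with 12 starts; *CDH1*, *CTNND1* and *F11R* were not matched. They were searched on both strands for 3 strings of letters: the E-box CAGGTG, known to be bound by Snail and ZEB repressors; TGACNNNGC, the core of the antioxidant response element, at which BACH1 and NRF2, each with a small MAF partner, compete; and the AP-1 type site TGAGTCA, which overlaps that core where GC follows its TGACTCA strand. Of 35116 RefSeq promoters, 20.6% hold the E-box, 13.3% the TGACNNNGC core and 4.95% TGAGTCA, and of the 12 windows here 5, 3 and 1 do. The windows of *CLDN3*, *CLDN4* and *CLDN7* are shown because these 3 genes had different patterns of change and different matches; capitals mark every match, on whichever strand:
CLDN3 chr7:73770221-73770520, minus strand: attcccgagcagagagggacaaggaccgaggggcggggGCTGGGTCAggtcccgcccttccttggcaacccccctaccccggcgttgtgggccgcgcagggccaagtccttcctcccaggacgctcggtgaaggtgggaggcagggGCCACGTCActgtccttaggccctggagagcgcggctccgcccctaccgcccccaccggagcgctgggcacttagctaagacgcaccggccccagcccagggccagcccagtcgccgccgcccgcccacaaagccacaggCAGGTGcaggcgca
CLDN4 chr7:73830746-73831045, plus strand: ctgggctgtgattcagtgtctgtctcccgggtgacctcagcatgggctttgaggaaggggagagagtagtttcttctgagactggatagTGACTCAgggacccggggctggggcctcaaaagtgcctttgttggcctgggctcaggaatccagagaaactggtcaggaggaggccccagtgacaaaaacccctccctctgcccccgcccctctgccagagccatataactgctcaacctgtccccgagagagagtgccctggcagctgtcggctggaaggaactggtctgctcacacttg
CLDN7 chr17:7262429-7262728, minus strand: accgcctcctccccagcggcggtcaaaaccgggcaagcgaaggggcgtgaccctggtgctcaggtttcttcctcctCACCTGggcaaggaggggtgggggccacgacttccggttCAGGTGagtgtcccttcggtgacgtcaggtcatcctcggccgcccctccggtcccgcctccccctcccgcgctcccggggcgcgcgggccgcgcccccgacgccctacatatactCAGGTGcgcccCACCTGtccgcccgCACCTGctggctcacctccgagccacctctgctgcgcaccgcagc
The *CLDN3* window holds 2 matches to TGACNNNGC and 1 E-box, that of *CLDN4* 1 TGAGTCA site and no other match, and that of *CLDN7* 5 E-boxes and no other match. A second RefSeq start of *CLDN7*, with its window at chr17:7263164-7263463 on the same strand, holds no E-box and 1 match to TGACNNNGC. Among genes whose windows are not shown, *OCLN*, called higher in both experiments, has 1 E-box in 1 window. Its other window has 2 E-boxes and 1 match to TGACNNNGC. *TJP1*, called in neither experiment, has 1 E-box in 1 of its windows. *CLDN1*, called higher in the knockout, and *CTNNB1*, called in neither, have no match. A match is a string of letters and was not tested as a binding site, and its relation to the changes was not tested.

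*CLDN3*, a sealing claudin, rose in both experiments. It stood at 64.6, 66.1 and 58.2 CPM in siBACH1, against 45.4, 24.8 and 39.4 CPM in siCont. SgBACH1 libraries had 55.5, 56.7 and 53.4 CPM, against 28.6, 31.6 and 32.1 CPM in sgCont. The groups were apart in each experiment, and siCont replicate 2 was the lowest library. The log2 fold change was 0.78 ± 0.19 after siRNA (edgeR adjusted p = 0.0148) and 0.84 ± 0.12 in the knockout (6.54e-06). Without siBACH1 replicate 1 or 2 the siRNA call was lost, at adjusted p = 0.0659 and 0.0645.

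*CLDN4*, the gene next to it on chromosome 7, rose after siRNA and did not pass the test in the knockout. It stood at 511.8, 494.4 and 491.3 CPM in siBACH1, against 345.7, 219.8 and 325.5 CPM in siCont. The sgBACH1 libraries held 381.1, 413.0 and 382.2 CPM, against 314.2, 331.2 and 398.4 CPM in sgCont. After siRNA all libraries were apart, whereas sgCont replicate 3 lay within the range of the knockout. The log2 fold change was 0.75 ± 0.15 after siRNA (edgeR adjusted p = 0.00574) and 0.17 ± 0.08 in the knockout (95% interval 0.01 to 0.34, adjusted p = 0.136), where leaving out sgCont replicate 3 made it 0.28 (adjusted p = 0.00815).

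*CLDN7*, whose product is known to lie along the basolateral membrane as well as at the tight junction, rose in the knockout and stood lower after siRNA without passing the test. It stood at 104.3, 105.5 and 99.5 CPM in siBACH1, against 121.5, 185.1 and 108.3 CPM in siCont. Knockout libraries (sgBACH1) had 80.2, 78.8 and 73.8 CPM, against 46.6, 46.2 and 44.9 CPM in sgCont. Groups were apart in each experiment but in opposite order, and siCont replicate 2 was the highest library of all. The log2 fold change was -0.42 ± 0.17 after siRNA (95% interval -0.81 to -0.03, edgeR adjusted p = 0.11) and 0.76 ± 0.10 in the knockout (adjusted p = 3.5e-06). Without siCont replicate 2 the siRNA value was -0.16 (adjusted p = 0.0692), and without siCont replicate 3 it was -0.58 and passed (0.0323). *CLDN7* overlaps an exon of *ELP5* on the opposite strand, which had 545 to 997 counts; since it is not given whether counting used strand, the counts of *CLDN7* are uncertain.

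*CLDN1*, needed for the skin barrier in mice, rose in the knockout. It stood at 89.8, 85.3 and 86.7 CPM in siBACH1, against 46.7, 86.1 and 51.3 CPM in siCont. In sgBACH1 it stood at 171.3, 158.2 and 168.0 CPM, against 88.9, 88.4 and 85.9 CPM in sgCont. The knockout libraries were far above their controls, and in the siRNA experiment the overlap came from siCont replicate 2. The log2 fold change was 0.92 ± 0.08 in the knockout (edgeR adjusted p = 4.48e-09) and 0.51 ± 0.20 after siRNA (95% interval 0.06 to 0.96, adjusted p = 0.0948). Without siCont replicate 2 it was 0.82 after siRNA (adjusted p = 1.03e-08), and limma-voom (0.0409) and DESeq2 (0.0497) also called it with all libraries.

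**Figure D2:**
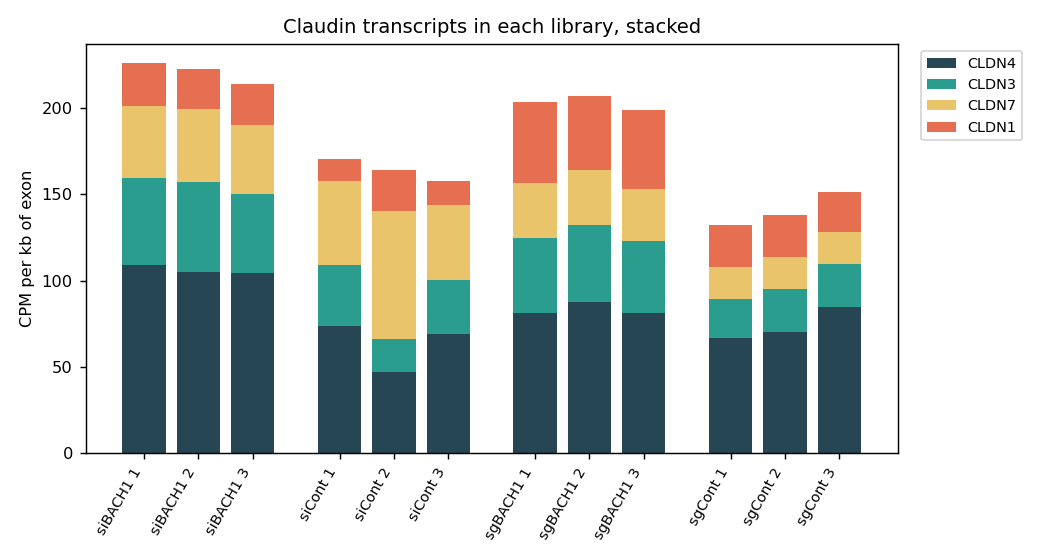
Stacked levels of *CLDN4*, *CLDN3*, *CLDN7* and *CLDN1* in each library, in CPM per kb of exon, with 1 column per library of siBACH1, siCont, sgBACH1 and sgCont. The summed height is greater in every *BACH1* library than in its controls, and siCont replicate 2 has the smallest *CLDN4* and the largest *CLDN7* segment of all libraries.

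The summed RNA of these 4 claudins was higher in all *BACH1* libraries than in their controls, while its makeup differed between experiments. The sum was 220.8 ± 6.31 CPM per kb in siBACH1 and 164.1 ± 6.50 in siCont, and 203.1 ± 4.25 in sgBACH1 and 140.5 ± 9.79 in sgCont (SD, n = 3 each; exact permutation test, two-sided, p = 0.1 for each experiment, the smallest possible). The *CLDN4* share of that sum was 48.1 ± 0.830% in siBACH1 and 38.5 ± 8.67% in siCont, but 41.0 ± 1.29% in sgBACH1 and 52.5 ± 3.01% in sgCont. The *CLDN7* share was 18.7 ± 0.249% in siBACH1 and 33.8 ± 9.96% in siCont, against 15.3 ± 0.454% in sgBACH1 and 13.2 ± 1.15% in sgCont. So the share of *CLDN4* was higher after siRNA and lower in the knockout, with the share of *CLDN7* in the reverse order (exact p = 0.1 for each of these 4 comparisons, n = 3 per group). *CLDN3* took 22.4 ± 0.971% in siBACH1 and 17.5 ± 4.88% in siCont, and 21.3 ± 0.207% in sgBACH1 and 17.2 ± 0.706% in sgCont. *CLDN1* took 10.8 ± 0.312% in siBACH1 and 10.2 ± 3.62% in siCont (exact permutation p = 0.7), and 22.3 ± 1.26% in sgBACH1 and 17.1 ± 1.47% in sgCont. The wide siCont errors came from replicate 2, in which *CLDN4* made up 28.5% and *CLDN7* 45.3% of the sum. Both the sum and the shares depend on the merged exon length of each gene.

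*OCLN* rose in both experiments. It stood at 99.1, 95.1 and 111.9 CPM in siBACH1, against 55.2, 75.5 and 49.1 CPM in siCont. Its level in sgBACH1 was 66.4, 45.4 and 58.6 CPM, against 25.8, 25.1 and 34.2 CPM in sgCont. No libraries overlapped, and the log2 fold change was 0.77 ± 0.15 after siRNA (edgeR adjusted p = 0.00581) and 1.00 ± 0.15 in the knockout (1.36e-05), the largest of the 10 genes there. The near-identical copy *OCLNP1* had 55, 65 and 71 reads counted in siBACH1, against 17, 30 and 13 in siCont, and 23, 10 and 49 in sgBACH1, against 4, 1 and 8 in sgCont, so the counts of *OCLN* (chr5:69492292-69558104, plus strand), which can share reads with it, are uncertain.

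*F11R* (chr1:160995211-161021348, minus strand), whose product JAM-A takes part in assembling the tight junction and which overlaps an exon of *AL591806.3* on its own strand, also rose in both. It stood at 91.8, 78.2 and 87.0 CPM in siBACH1, against 56.2, 59.7 and 58.1 CPM in siCont. In sgBACH1 it stood at 46.7, 53.0 and 48.2 CPM, against 37.4, 38.0 and 33.9 CPM in sgCont. The groups were apart, and the log2 fold change was 0.56 ± 0.09 after siRNA (edgeR adjusted p = 0.00206) and 0.44 ± 0.12 in the knockout (0.00838), the knockout value losing its call without sgBACH1 replicate 2 (0.38, adjusted p = 0.0656).

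*TJP1* (chr15:29699367-29968865, minus strand), the scaffold gene, did not pass the test in either experiment. It stood at 168.1, 156.8 and 168.7 CPM in siBACH1, against 123.6, 190.6 and 130.1 CPM in siCont. Its level in sgBACH1 was 151.7, 148.4 and 171.1 CPM, against 162.0, 163.9 and 174.5 CPM in sgCont. Groups overlapped in both experiments, after siRNA only because of siCont replicate 2. The log2 fold change was 0.15 ± 0.15 after siRNA (95% interval -0.18 to 0.49, edgeR adjusted p = 0.506) and -0.09 ± 0.08 in the knockout (interval -0.25 to 0.08, adjusted p = 0.506). Without siCont replicate 2 it was called higher after siRNA (0.37, adjusted p = 5.13e-05).

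**Figure D3:**
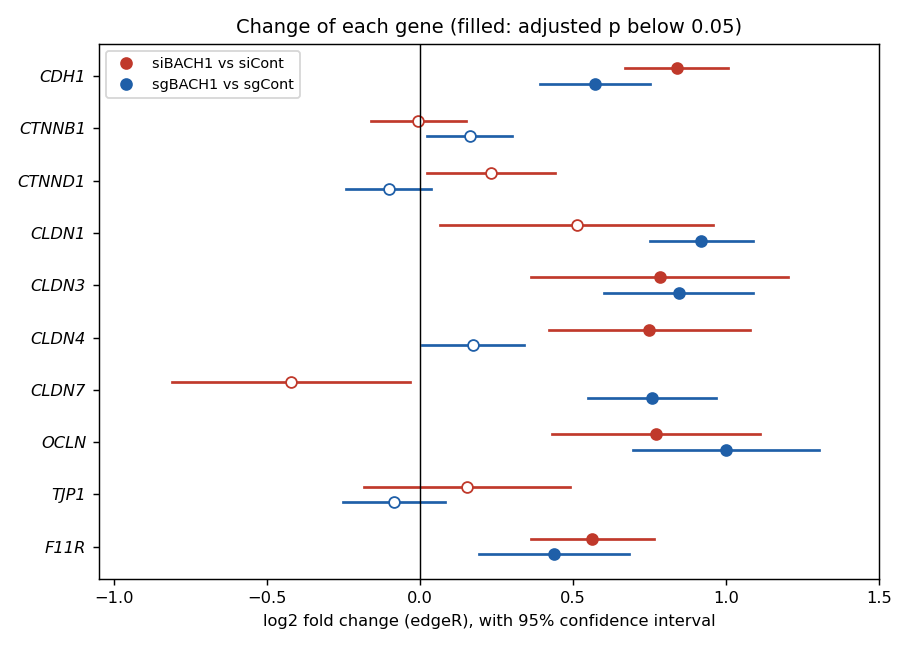
Log2 fold change of each junction gene with its 95% confidence interval from edgeR, siBACH1 against siCont in red and sgBACH1 against sgCont in blue; filled points have an adjusted p below 0.05. *CDH1*, *CLDN3*, *OCLN* and *F11R* are filled in both colours, and the *CLDN7* intervals lie on opposite sides of 0.

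The responses to siRNA and to knockout were compared in 1 fit of all 12 libraries, in which 23.6% of 15644 genes were called. The responses of 3 of the 10 genes differed: *CLDN7* (siRNA minus knockout, log2 -1.17 ± 0.20, edgeR adjusted p = 0.000311), *CLDN4* (0.58 ± 0.18, adjusted p = 0.0276) and *CTNND1* (0.34 ± 0.11, adjusted p = 0.0342). The *CLDN7* difference was called without any single library, from -1.33 to -0.91. Those of *CLDN4* and *CTNND1* lost their call without some libraries, *CLDN4* without any of 5 (adjusted p up to 0.0857) and *CTNND1* without any of 8 (up to 0.0793). For *CDH1* the difference was 0.27 ± 0.11 (95% interval 0.04 to 0.51, adjusted p = 0.0867), for *CLDN1* -0.40 ± 0.21 (interval -0.85 to 0.05, adjusted p = 0.205; -0.088 without siCont replicate 2, adjusted p = 0.629) and for *CLDN3* -0.06 ± 0.22 (interval -0.52 to 0.41, adjusted p = 0.889). The remaining 4 genes did not pass, between -0.22 for *OCLN* and 0.25 for *TJP1*. *BACH1* itself differed by -2.66, so the experiments are not matched in how far its RNA fell.

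Per kb of exon, *CLDN4* had the highest mean of the 10 RNAs in every group. In siBACH1 it stood at 106.2 CPM per kb, above *CTNND1* at 65.4, *CLDN3* at 49.4, *CLDN7* at 41.4, *CDH1* at 31.5, *CTNNB1* at 29.1 and *CLDN1* at 23.8; *F11R* at 16.9, *OCLN* at 15.1 and *TJP1* at 14.6 CPM per kb followed with overlapping libraries. In siCont the libraries of *CLDN4* (63.2 CPM per kb), *CTNND1* (55.7) and *CLDN7* (55.5) overlapped, *CTNNB1* at 29.3 and *CLDN3* at 28.7 were next, and *CDH1* at 17.6, *CLDN1* at 16.8, *TJP1* at 13.1, *F11R* at 11.5 and *OCLN* at 8.87 formed a run of overlapping neighbours. Per kb, *CDH1* thus stood above *CTNNB1* in siBACH1 and below it in siCont. In CPM not divided by length, *CDH1* averaged 194.4 in siBACH1, below *CTNNB1* at 347.3. The divisor is the length of all annotated exons merged, 6177 bases for *CDH1* and 11927 for *CTNNB1*. It is not the length of the transcripts expressed here, so the order of different genes depends on it. In sgBACH1 *CLDN4* at 83.4 and *CTNND1* at 53.7 CPM per kb led, *CLDN1* at 45.3, *CTNNB1* at 44.3 and *CLDN3* at 43.3 overlapped, and *CLDN7* at 31.1, *CDH1* at 21.0, *TJP1* at 13.9, *F11R* at 9.73 and *OCLN* at 8.39 followed, the last pair overlapping. In sgCont the order was *CLDN4* at 74.0, *CTNND1* at 57.7, *CTNNB1* at 39.6, *CLDN3* at 24.1 and *CLDN1* at 24.0 (overlapping), *CLDN7* at 18.4, *TJP1* at 14.8, *CDH1* at 14.1, *F11R* at 7.19 and *OCLN* at 4.20 CPM per kb. *CDH1* stood above *TJP1* in sgBACH1 and below it in sgCont. The tables were scaled separately, so levels of the 2 experiments stand side by side without a test.

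Across the 12 libraries, with log2 values centred within each experiment, the genes whose pattern was most like that of *CDH1* among 13845 were *TP53I11* (Pearson r = 0.986), *PKP4* (0.983), an armadillo-repeat relative of p120-catenin, and *OSBPL10* (0.981). For *CLDN3* they were *SEPTIN8* (0.980), *NOTCH1* (0.975) and *NQO1* (0.968), for *OCLN* *PTPN3* (0.961), *TRIM27* (0.954) and *TMEM45B* (0.948), and for *F11R* *IGSF9* (0.969), *GCLC* (0.963) and *UGDH* (0.961). Among the 10 genes, *CDH1* was most like *F11R* (0.959), *CLDN1* was most like *OCLN* (0.919) and *CTNND1* like *TJP1* (0.833), whereas *CLDN4* and *CLDN7* ran against each other (-0.392). These values describe 12 libraries that share their group differences and, in part, siCont replicate 2, and they carry no test.

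Genes around each of the 10 on the chromosome, up to 50 tested genes on each side, had median log2 fold changes between -0.11 and 0.10 with 1 exception. This was *CLDN1* in the knockout, where 1 of 97 neighbours was called higher and 32 lower, with a median log2 fold change of -0.30, while *CLDN1* rose by 0.92. Around *CLDN7* 1 of 100 was higher and 12 lower in the knockout (median -0.08), around *CDH1* 22 of 100 were higher and 9 lower after siRNA (0.10), in the direction of *CDH1*, and 13 higher and 8 lower in the knockout (0.02), and around *OCLN* after siRNA 7 were higher and 24 lower (-0.11). Over all genes tested, 10.9% were higher and 13.0% lower after siRNA, and 11.3% were higher and 12.3% lower in the knockout.

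Other junction genes were taken from lists chosen by function. Beside the counts of every list stand the shares of all genes tested. After siRNA 10.9% were called higher and 13.0% lower, and in the knockout 11.3% higher and 12.3% lower. Among 14 partners at the adherens junction, 12 were tested after siRNA, of which 2 rose and 2 fell, with a median log2 fold change of 0.08; in the knockout 13 were tested, 2 rose and 6 fell, with a median of -0.10. *PKP4* rose in both, by 0.50 ± 0.07 after siRNA and 0.26 ± 0.07 in the knockout (SE, edgeR adjusted p = 0.0011 and 0.0117), and *CDH3*, P-cadherin, fell in both (-0.77 ± 0.22 after siRNA and -1.10 ± 0.17 in the knockout, adjusted p = 0.0324 and 1.63e-05). *CDH17*, the intestinal cadherin, averaged 1490 CPM in siBACH1 and 2312 CPM in siCont (-0.63 ± 0.07, adjusted p = 0.000196) and did not pass in the knockout (-0.02). *AFDN*, afadin, the actin linker of nectins, rose after siRNA (0.32) and fell in the knockout (-0.26), with a difference of 0.59 ± 0.11 (adjusted p = 0.00119). In the knockout *NECTIN3* fell by 2.70 ± 0.24 (2.94 CPM in sgBACH1, 19.1 in sgCont), vinculin (*VCL*) by 0.65, *NECTIN1* by 0.52 and plakoglobin (*JUP*) by 0.35, while *EPCAM*, also among the ductal markers above, rose by 0.54 (583.6 CPM in sgBACH1, 400.2 in sgCont). *CTNNA1*, α-catenin, did not pass in either (-0.16 after siRNA and 0.13 in the knockout). Of the genes named from the lists, *CDH3*, *CTNNA1*, *PKP4*, *NECTIN1*, *VCL*, *CLDN2*, *MARVELD3*, *PATJ*, *CRB3*, *LGR5*, *RNF43*, *DKK1*, *ZEB1*, *CBLL1*, *ADAM10* and *MDM2* overlap an exon of another gene on the opposite strand, and *CLDN12*, *AXIN2*, *RNF43*, *MDM2* and *NUMB* on their own strand, so their counts are uncertain.

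Of 16 further claudins, 4 were expressed enough to test in each experiment. *CLDN12*, a claudin that lacks the usual PDZ-binding end, fell after siRNA, at 33.4 CPM in siBACH1 and 126.6 in siCont (log2 -1.92 ± 0.10, edgeR adjusted p = 3.73e-06), and rose in the knockout, at 67.5 CPM in sgBACH1 and 50.1 in sgCont (0.43 ± 0.11, adjusted p = 0.00525). The difference was -2.35 ± 0.14 (adjusted p = 5.33e-09). *CLDN2*, which forms a cation pore, averaged 1.59 CPM in siBACH1 and 5.11 in siCont (-1.70 ± 0.42, adjusted p = 0.0184) and did not pass in the knockout (-0.13). Of 24 other membrane and plaque genes of the tight junction, 19 were tested in each experiment; 6 rose and 2 fell after siRNA (median 0.20), and 3 rose and 3 fell in the knockout (median -0.02). *TJP3*, ZO-3, rose in both (0.61 ± 0.09 after siRNA and 0.29 ± 0.09 in the knockout, adjusted p = 0.00131 and 0.0172), and the polarity genes *PALS1* (-0.42 after siRNA, -0.51 in the knockout) and *PARD6B* (-0.73 after siRNA, -0.36 in the knockout) fell in both. The siRNA call of *PARD6B* barely passed (edgeR adjusted p = 0.0495). It averaged 47.6 ± 4.14 CPM in siBACH1 and 79.1 ± 32.4 CPM in siCont (SD), so its control libraries were widely spread. *PATJ* (0.68), *MAGI3* (0.68), *CRB3* (0.74), *PARD6A* (0.93) and the tricellular junction gene *LSR* (0.43) rose after siRNA, while tricellulin (*MARVELD2*, 0.52) and *MARVELD3* (1.21), relatives of occludin, rose in the knockout. Low levels limit 2 of these changes. *PARD6A* averaged 4.13 CPM in siBACH1 and 2.17 in siCont (edgeR adjusted p = 0.0383). *MARVELD3* averaged 5.95 CPM in sgBACH1 and 2.57 in sgCont (edgeR adjusted p = 0.0161).

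**Figure D4:**
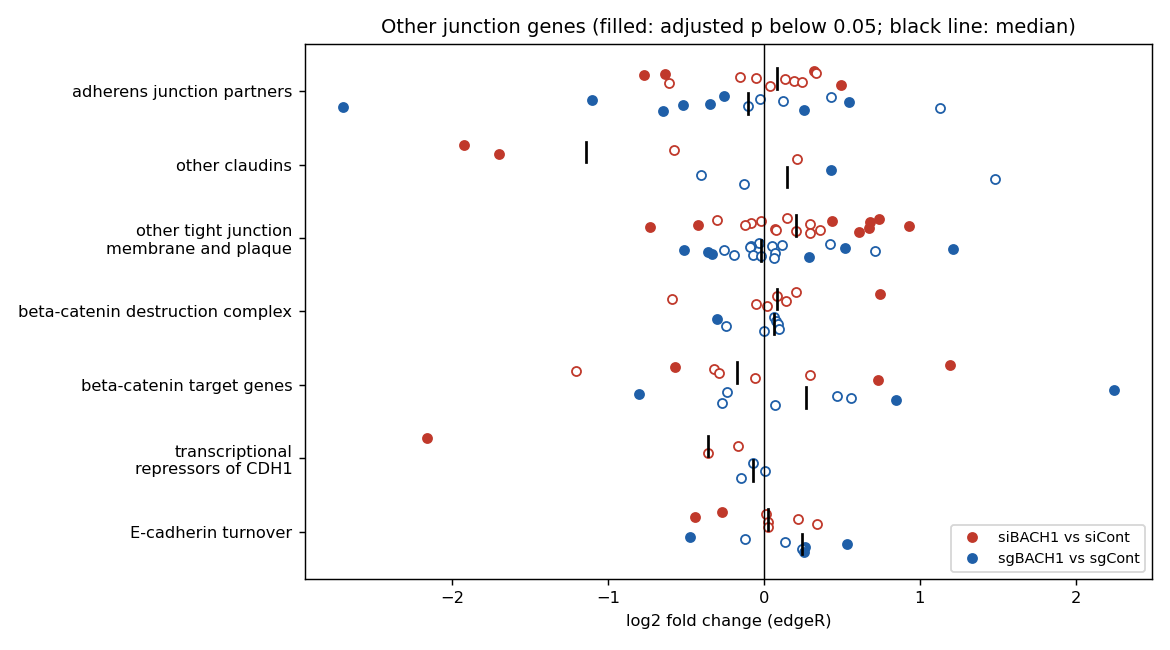
Log2 fold change of each tested gene of 7 lists of related genes, siBACH1 against siCont in red and sgBACH1 against sgCont in blue, with filled points at an adjusted p below 0.05 and a black line at each list's median. The lowest siRNA point is *SNAI2* at -2.16 and the highest knockout point is *AXIN2* at 2.24.

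Of 8 genes of known transcriptional repressors of *CDH1*, 3 were tested. *SNAI2*, which encodes Slug, fell after siRNA, at 13.0 CPM in siBACH1 and 58.3 in siCont (log2 -2.16 ± 0.18, edgeR adjusted p = 4.93e-05), and did not pass in the knockout, at 17.1 CPM in sgBACH1 and 18.01 in sgCont (-0.07 ± 0.18, adjusted p = 0.832; difference -2.08 ± 0.24, adjusted p = 6.27e-06). *ZEB1* (-0.36 after siRNA, -0.15 in the knockout) and *TCF3* (-0.17 after siRNA, 0.01 in the knockout) did not pass in either. Of 7 genes for E-cadherin turnover, 2 fell after siRNA, and 3 rose and 1 fell in the knockout. *ADAM10*, the protease that sheds its outer part, fell in both (-0.27 after siRNA and -0.48 in the knockout, adjusted p = 0.0311 and 0.000206), and *CBLL1*, the ubiquitin ligase Hakai that binds E-cadherin, fell after siRNA (-0.44, adjusted p = 0.0145). *MDM2* (0.53), *NUMB* (0.26) and *RAB11A* (0.25) rose in the knockout.

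For the Wnt side of β-catenin, 7 genes of its destruction complex were tested. *AXIN1*, the scaffold of that complex, rose after siRNA, at 179.0 CPM in siBACH1 and 107.1 in siCont (log2 0.74 ± 0.07, edgeR adjusted p = 0.000111), and fell in the knockout, at 89.1 CPM in sgBACH1 and 110.0 in sgCont (-0.30 ± 0.09, adjusted p = 0.0106); the other 6 did not pass in either. Of 11 target genes, 8 were tested, and 2 rose and 1 fell in each experiment, with medians of -0.18 after siRNA and 0.27 in the knockout. *AXIN2*, a feedback inhibitor, rose in both, at 6.10 CPM in siBACH1 and 2.64 in siCont (1.19 ± 0.26, adjusted p = 0.0103) and at 14.8 CPM in sgBACH1 and 3.07 in sgCont (2.24 ± 0.31, adjusted p = 5.26e-06). *LGR5*, a stem cell receptor, fell in the knockout, at 114.9 CPM in sgBACH1 and 200.0 in sgCont (-0.80 ± 0.08, adjusted p = 1.94e-08), where *RNF43* rose (0.84), and after siRNA *ZNRF3* rose (0.73) and *DKK1* fell (-0.57). Of the listed genes that fell after siRNA, *CLDN12*, *CBLL1* and *ADAM10* hold one of the 3′ UTR strings given above, and *CDH3*, *CDH17*, *CLDN2*, *PALS1*, *PARD6B*, *DKK1* and *SNAI2* do not; *PATJ*, *MAGI3*, *PARD6A* and *ZNRF3*, which rose, hold one as well.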

How the data were processed

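The authors deposited raw read counts per gene, 1 table per experiment; per the submitters' processing notes, genome hg19 was used along with SAMtools and HTSeq 0.9.1. The aligner and counting mode, and any use of strand, were not given in the sources used here. Reads that map to several places are dropped by HTSeq's default. Every column matched a sample by its label. Of 57820 identifiers, 51996 took a symbol from a table of current names; coordinates, exon lengths and 3′ UTRs come from GENCODE 29 on GRCh38, which is not the build of the counts.

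The test was edgeR's two-sided quasi-likelihood test (version 4.0.16, R 4.3.3), after TMM scaling and filterByExpr with a minimum count of 10. P-values were adjusted by Benjamini-Hochberg across every gene tested, with a threshold of 0.05. The fits took each experiment alone and the difference of responses in 1 fit of 12 libraries. A standard error is the log2 fold change divided by the square root of F. CPM per kb divides TMM-scaled CPM by the length of the merged exons. Correlations used log2(CPM + 1). Alternatives were DESeq2 1.42.0, limma-voom (limma 3.58.1), other scalings and filters, a replicate block and leaving out each library. The steps were tested on simulated data.

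The 10 genes and the lists were chosen with earlier results of these data known. From each list the text names at most the 4 called genes with the largest change per comparison, and genes with a mean of at least 50 CPM. *ZEB1*, which met neither condition, is named as well. Of the 3 endothelial markers chosen, *PECAM1* was not matched.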

Additional observations from a re-analysis of the deposited data

Results flagged for a closer look

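For 3 of the 10 junction genes the response to siRNA differed from the response to knockout by a test of the difference itself, in 1 edgeR fit of 12 libraries. That fit called 23.6% of the 15644 genes tested, so 3 of 10 is close to the share of all genes. For *CLDN7* the difference, siRNA minus knockout, was -1.17 on the log2 scale (adjusted p = 0.000311). For *CLDN4* it was 0.58 (adjusted p = 0.0276) and for *CTNND1* 0.34 (adjusted p = 0.0342). *CLDN4* and *CTNND1* lost their call when some single libraries were left out (edgeR adjusted p up to 0.0857 and 0.0793). Groups of 3 libraries are too small for a test of single outlying libraries.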

How the results depend on the processing

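Over the 10 genes and all alternatives, direction and side of the threshold were kept in 131 of 150 values after siRNA, 146 of 150 in the knockout and 183 of 200 for the difference. Leaving out each library in turn gave 2002 to 5121 genes called after siRNA (4 to 8 of the 10), 2500 to 3586 in the knockout (5 to 7) and 2960 to 3990 for the difference (1 to 4). The 3 lowest siRNA counts, 2002, 2078 and 2096, came without siBACH1 replicate 1, 2 and 3. Without siCont replicate 1, 2 and 3 the counts were 2699, 5121 and 2975, and the cause was not tested. With all 12 libraries in 1 fit, 3452 of the 15644 genes tested were called after siRNA, 1553 higher and 1899 lower. Of the 10 genes that fit called 8, 7 higher and *CLDN7* lower (-0.42, edgeR adjusted p = 0.0385). *CLDN7* was also called lower without the filter on low counts (-0.41, 0.00155). The sign of *CTNNB1* after siRNA turned to 0.027 with upper quartile scaling, 0.0059 with library totals and 0.0042 without the filter, and it ranged from -0.036 to 0.019 when single libraries were left out, positive without siBACH1 replicate 1 or siCont replicate 1. The *CLDN3* difference ranged from -0.27 to 0.14, positive without siBACH1 replicate 3 or siCont replicate 1; the cause was not tested. *CDH1* differed between experiments without sgBACH1 replicate 2 (0.35, adjusted p = 0.0421), and *TJP1* without siCont replicate 2 (0.46, 0.00196). Deviations from the group mean were correlated between a *BACH1* library and a control library. With the same replicate number, r was 0.06, 0.04 and 0.01 in the siRNA experiment and -0.00, 0.03 and 0.05 in the knockout. With different numbers it was -0.05 to 0.02 and -0.06 to 0.02. All values are small, and the main fits did not pair libraries by number. With the replicate block edgeR called 3196, 3530 and 3513 genes for siRNA, knockout and difference, and after siRNA 6 of the 10, *CLDN1* being added (0.56, adjusted p = 0.0459). At this depth 12 of 16 further claudins were too low to test in each experiment.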
